A study of Mus musculus with 4 samples.

Results

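The transition proteins and protamines were followed here as 5 genes, TNP1, TNP2, PRM1, PRM2 and PRM3, taken by name from the 25824 gene names in the 4 count tables. The data were single cell RNA-seq of dissociated testes from 15-week-old mice of the background strain labelled C56BL/6J, made with ddSEQ droplets and a 3′ library kit. The 2 WT mice carried Ctcf wt/wt. The 2 Ctcf-cKO mice carried Stra8-iCre and Ctcf f/Δ, so that the recombinase acted in germ cells from before meiosis, while somatic cells kept the f allele beside the Δ allele. Each mouse gave 1 library, and the mice are called WT replicate 1, WT replicate 2, Ctcf-cKO replicate 1 and Ctcf-cKO replicate 3 after their labels.

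In spermatids, histones are taken off the DNA and replaced first by the transition proteins and then by the protamines, small arginine-rich proteins that pack the sperm nucleus. The genes are transcribed in haploid cells, and their messenger RNAs are stored and translated days later, when transcription has stopped and the nucleus condenses. TNP1 and TNP2 encode the main transition proteins. PRM1 and PRM2 encode the protamines that bind sperm DNA, of which PRM2 is made as a longer precursor, and PRM3 encodes an acidic protein of the same gene cluster that stays in the cytoplasm.

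In the annotation of GRCm38, TNP1 lies on chr1:73015074-73015909 and overlaps 1700027A15Rik on the other strand. The other 4 genes sit together on chromosome 16 within 17904 bp, all on the minus strand: PRM1 (chr16:10796326-10805839), PRM2 (chr16:10791380-10796134), PRM3 (chr16:10790505-10790914) and TNP2 (chr16:10787936-10788660). TNP1 and TNP2 have 2 exons each and PRM3 has 1. PRM2 ends 465 bp from the start of PRM3, and PRM3 ends 1844 bp from the start of TNP2. The stretches upstream of the 5 genes are shown because the genes come on in the same cells from separate start sites, and because CREM, a transcription activator of spermatids, binds the letters TGANNTCA, set in capitals. Each stretch runs 5′ to 3′ on the minus strand from 150 to 51 bases before the RefSeq start (GRCm38.p6) and covers chr1:73015950-73016049 for TNP1, chr16:10788706-10788805 for TNP2, chr16:10796874-10796973 for PRM1, chr16:10792156-10792255 for PRM2 and chr16:10790965-10791064 for PRM3.
TNP1: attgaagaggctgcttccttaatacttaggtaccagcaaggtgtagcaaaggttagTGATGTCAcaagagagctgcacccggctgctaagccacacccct
TNP2: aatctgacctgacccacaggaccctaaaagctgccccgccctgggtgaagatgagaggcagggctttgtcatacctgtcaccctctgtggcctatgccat
PRM1: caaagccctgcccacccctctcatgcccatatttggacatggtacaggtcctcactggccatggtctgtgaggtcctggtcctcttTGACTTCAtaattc
PRM2: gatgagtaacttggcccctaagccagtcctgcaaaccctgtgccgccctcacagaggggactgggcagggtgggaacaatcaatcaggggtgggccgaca
PRM3: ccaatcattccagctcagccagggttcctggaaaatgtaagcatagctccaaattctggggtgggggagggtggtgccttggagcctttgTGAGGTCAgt
All 5 genes matched a RefSeq promoter. The RefSeq starts of PRM1 and PRM2 lie 9016 and 4029 bases inside the gene spans given above. Their stretches thus belong to 1 annotated start each, and the stretches upstream of the outer starts were not searched. The match began 94 bases before the start in TNP1, 64 bases before it in PRM1 and 60 bases before it in PRM3. TNP2 and PRM2 had no match within 150 bases, a window in which 8.37% of 32851 RefSeq promoters held at least 1 match on either strand. TATAA lay within 33 bases of the start in TNP2 and PRM1, and on the other strand in PRM2. Of all RefSeq promoters, 14.2% held TATAA on either strand within 150 bases.

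Sequencing depth differed between genotypes: the WT libraries had 6701235 and 4859455 counts, the Ctcf-cKO libraries 2652665 and 1593546, and the median per cell ranged from 15357 in WT replicate 1 to 2338 in Ctcf-cKO replicate 3. Ctcf had 110 and 49 counts in the WT libraries and 4 and 7 in the Ctcf-cKO libraries. A barcode was taken as a cell when it held at least 3 times the plateau count that free RNA gave to droplets of its library, which left 96, 241, 228 and 246 cells. Clusters were made without the 5 genes and named from marker lists. The germ cells fell into a spermatocyte-like cluster of 66 cells, round spermatid-like clusters of 124 and 77 cells and elongating spermatid-like clusters of 118 and 149 cells, the last of these called late. Cells of the first round cluster came mostly from WT replicate 2 (93 of 124) and none from WT replicate 1. A further cluster of 80 cells had no raised marker of any list and was left unnamed. The cluster names held up unevenly. Of 24 markers of elongating spermatids, 19 were raised in the cluster of 118 cells and 6 in the late one. Median pseudotime, a place along a path through the germ cells, was 0.850 and 0.876 in these clusters. With finer clusters, the late stage was a cluster of 113 cells with 18 of 24 markers raised. A cluster of 119 cells, 27 of them from WT replicate 1 as in the late cluster here, had 1 of 24 raised and was left unnamed. The name late and its place after the cluster of 118 cells thus did not hold there.

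Free RNA carried all 5 genes at high levels, so each level was set beside that of the barcodes under 200 genes in the same mouse. The 5 genes together made up 4.70% and 9.07% of the counts of those barcodes in WT and 9.50% and 8.78% in Ctcf-cKO. In free RNA, PRM1 stood at 14364 and 31994 CPM (counts scaled to 1000000 per class of barcodes) in WT and at 30944 and 29883 CPM in Ctcf-cKO, and WT replicate 1 was the lowest mouse for each of the 5 genes. The somatic-like cells, which should lack these genes, held them at 7.17% and 9.27% of their counts in the WT mice, against 6.30% and 7.85% in the Ctcf-cKO mice. A level near these was read as background. In WT replicate 1 the pooled share of 7.17% does not describe most somatic-like cells, as the median over its 11 cells was 1.03%. There 5804 of the 6823 counts of the 5 genes came from 3 peritubular or fibroblast-like cells, 1 of them called a doublet. The medians of the other mice were 10.7% in WT replicate 2 and 7.27% and 8.59% in Ctcf-cKO. The lowest level was in WT replicate 1, whose 5 spermatocyte-like cells held the 5 genes at 0.193% of counts, against 5.62%, 5.69% and 5.23% in the spermatocyte-like cells of the other mice.

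**Figure D1:**
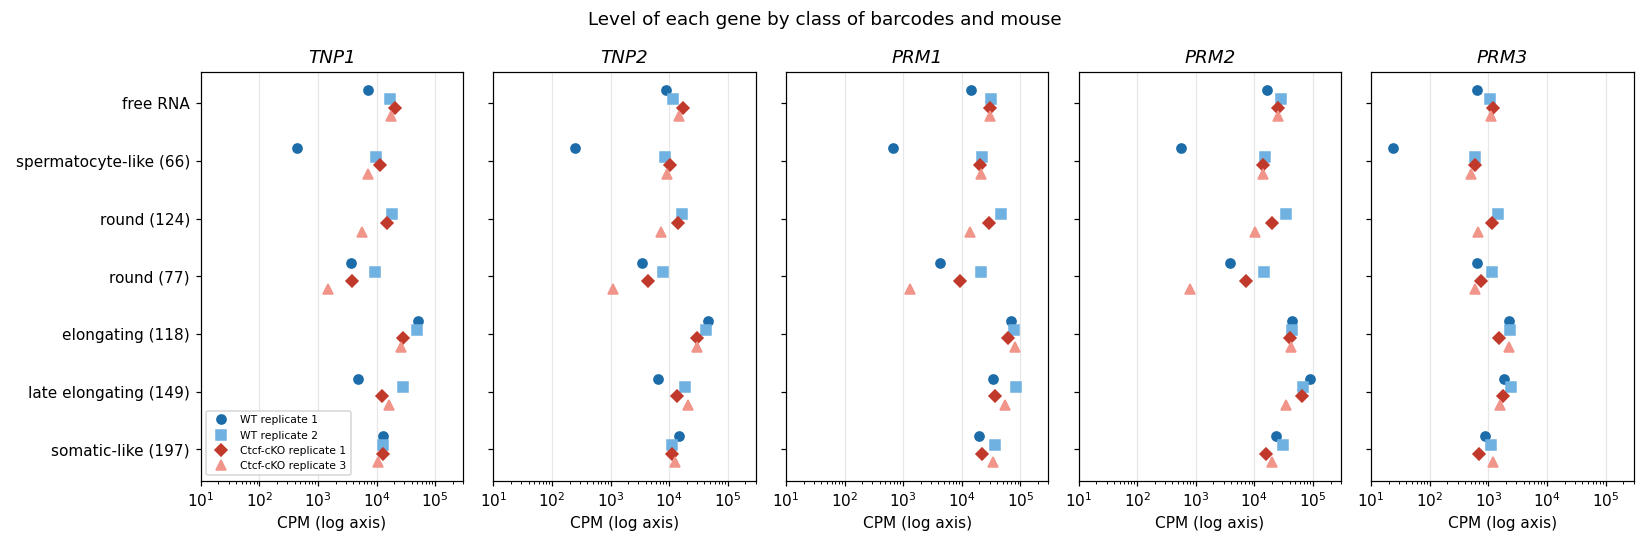
Level of each gene in CPM (log axis) by class of barcodes, 1 symbol per mouse and classes with at least 3 cells shown. The elongating cluster of 118 cells lies to the right of free RNA for each gene in each mouse, whereas the spermatocyte-like and somatic-like cells of most mice lie near free RNA.

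Of the spermatid-like clusters, the elongating one of 118 cells held the largest share of the 5 genes in each mouse. There they made up 21.3% and 21.8% of all counts in the WT mice, against 16.2% and 18.2% in the Ctcf-cKO mice. TNP1 reached 50632 and 50030 CPM in WT and 28559 and 26472 CPM in Ctcf-cKO, which was 7.12 and 2.92 times free RNA in WT and 1.39 and 1.52 times in Ctcf-cKO. TNP2 reached 46762 and 42706 CPM in WT and 29729 and 30364 CPM in Ctcf-cKO. For both transition proteins, both WT mice lay above both Ctcf-cKO mice. PRM1 was the most abundant of the 5 genes there, at 69089 and 78649 CPM in WT and 62723 and 81132 CPM in Ctcf-cKO. PRM2 stood at 44179 and 44365 CPM in WT and at 39887 and 42224 CPM in Ctcf-cKO, a narrow range in which both WT mice were above both Ctcf-cKO mice. PRM3 was by far the lowest of the 5, at 2245, 2303, 1491 and 2281 CPM. The counts come from tags at the 3′ ends of transcripts and are not per length. All 5 genes exceeded free RNA in that cluster in 4 of 4 mice, from 1.26 times (PRM3, Ctcf-cKO replicate 1) to 7.12 times (TNP1, WT replicate 1).

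The late cluster held the 5 genes at 13.7% and 20.1% of counts in the WT mice and 12.8% in each Ctcf-cKO mouse. TNP1 was there at 4919 and 28033 CPM in WT and 12309 and 16371 CPM in Ctcf-cKO, below free RNA in 3 of 4 mice. PRM2 was at 89788 and 68786 CPM in WT and 64449 and 34316 CPM in Ctcf-cKO, or 5.54, 2.40, 2.57 and 1.38 times free RNA. PRM2 was thus above free RNA in 4 of 4 mice where TNP1 was not. The late cells had median counts of 9068 and 3812 in WT and 2134 and 1464 in Ctcf-cKO. HBB-BS, a haemoglobin gene, had a mean of 3664 CPM (SD 3837) in the late cells of Ctcf-cKO, against 1069 CPM (SD 300) in Ctcf-cKO free RNA. The first SD exceeded its mean, so that mean does not describe both mice. In the round cluster of 77 cells, TNP1 and PRM1 lay below free RNA in 4 of 4 mice, at 0.0870 to 0.545 times for TNP1 and 0.0435 to 0.654 times for PRM1.

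PRM3 stood far over the counts expected from free RNA in round spermatid-like cells that held little of the other 4 genes. Round cells were picked in which TNP1, TNP2, PRM1 and PRM2 together made up under 1% of counts, a choice in which PRM3 had no part. There were 13 such cells of 15 in WT replicate 1, 7 of 139 in WT replicate 2, 5 of 37 in Ctcf-cKO replicate 1 and 5 of 10 in Ctcf-cKO replicate 3. The counts that free RNA would add were taken as the plateau count per droplet with the make-up of the barcodes under 200 genes. In this and the next paragraph, times the free RNA level means counts over these expected counts. It is not the CPM ratio used above, and it grows with the counts of a cell. In CPM, PRM3 in the picked round cells was at 515 and 634 in WT and 134 and 646 in Ctcf-cKO. Each value was under the mean of free RNA in its genotype, 839 CPM in WT and 1137 CPM in Ctcf-cKO. PRM3 had 240 counts in these cells of WT replicate 1 where free RNA would give 11.9, and 117 counts against 5.83 in WT replicate 2. It had 12 counts against 2.57 in Ctcf-cKO replicate 1 and 58 against 1.65 in Ctcf-cKO replicate 3. PRM3 was found in 13 of 13, 7 of 7, 3 of 5 and 4 of 5 of these cells. It was thus at 20.2, 20.1, 4.67 and 35.1 times the free RNA level in the 4 mice, and at 9.01% to 28.3% of its CPM in the elongating cluster.

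The same cells held TNP1 at 2.71 and 2.55 times the free RNA level in WT and at 0.765 and 4.36 times in Ctcf-cKO. TNP2 was at 1.32 and 1.34 times in WT and 0.670 and 3.12 times in Ctcf-cKO. Against the barcodes under 200 genes, PRM1 and PRM2 stayed under the free RNA level: PRM1 was at 0.831, 0.927, 0.493 and 0.617 times and PRM2 at 0.786, 0.789, 0.588 and 0.582 times. Since the cells were chosen for low sums of these 4 genes, their low values are part of the choice, and so is their place under PRM3. PRM3 had no part in the choice, but its value over expected counts grows with the depth of the cells picked. These held 466366 counts in 13 cells, 184644 in 7, 89297 in 5 and 89726 in 5, in the order of the mice above. The medians of all round cells were 38472, 9118, 10396 and 4603.5 counts a cell. The part of depth in the PRM3 values was not tested. As background, the spermatocyte-like cells under the same limit (5, 4 and 4 cells in 3 mice, none in Ctcf-cKO replicate 1) held PRM3 at 0.658, 0 and 3.79 times the free RNA level, the last from 5 counts. The somatic-like cells under the limit (5, 1, 14 and 16) held PRM3 at 1.10, 0, 0 and 0.568 times. With the profile of the plateau barcodes in place of the barcodes under 200 genes, PRM3 in the round cells was at 4.97 to 33.8 times, and in WT replicate 1 PRM1 and PRM2 came to 1.05 and 1.20 times.

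**Figure D2:**
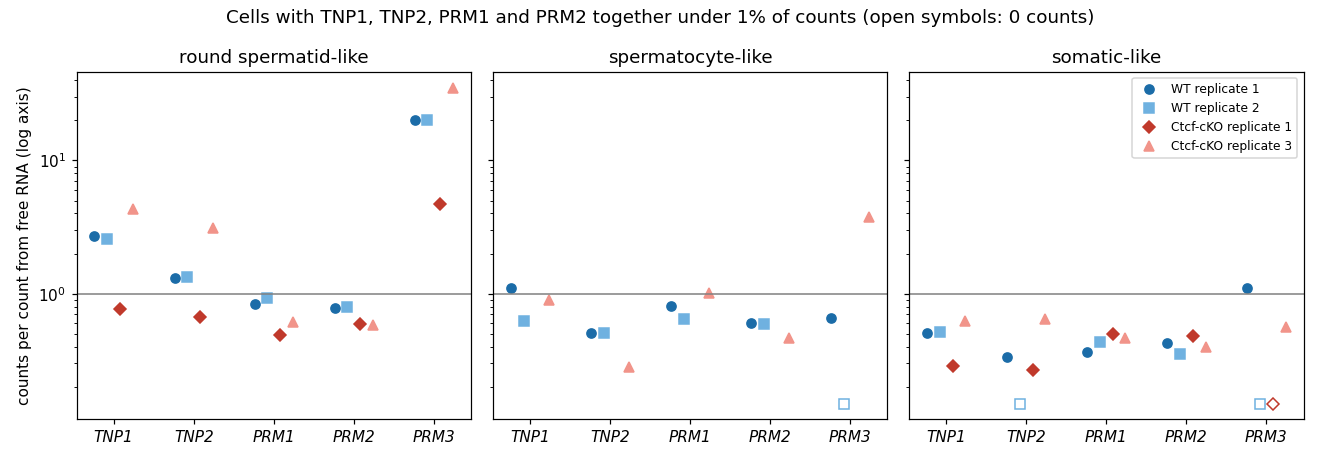
Counts of each gene per count expected from free RNA (log axis, grey line at 1) in cells whose TNP1, TNP2, PRM1 and PRM2 together were under 1% of counts, 1 symbol per mouse and open symbols at the bottom for 0 counts. PRM3 stands at 4.67 to 35.1 in round spermatid-like cells, while in somatic-like cells it stays between 0 and 1.10.

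Taken without regard to these genes, the round cluster of 77 cells held PRM3 at a higher share of PRM2 than the elongating cluster did. PRM3 was there 16.7% and 7.90% of PRM2 in WT and 10.4% and 74.7% in Ctcf-cKO. In the elongating cluster of 118 cells it was 5.08%, 5.19%, 3.74% and 5.40% of PRM2, lower in 4 of 4 mice. The value of 74.7% rests on 3 cells. The round cluster of 124 cells had 4.31% in WT replicate 2, lower than in its elongating cells, and 5.71% and 6.57% in Ctcf-cKO, higher than in the elongating cells of the same mice. No test was made of this step between stages, which were drawn from the same cells.

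Along diffusion pseudotime, cut into 6 bins of 89 cells, the steep rise fell between the last round bin and the first elongating bin. TNP1 and TNP2 first reached 50% of their highest bin in bin 4, the first bin of elongating cells, in 4 of 4 mice. PRM1 and PRM2 did so in bin 4 in 3 mice and in bin 2 in WT replicate 2. PRM3 did so in bin 4 in WT replicate 1 and Ctcf-cKO replicate 3 and in bin 2 in the other two. From its lowest to its highest bin, TNP1 rose 94.0 times in WT replicate 1 but 5.43, 3.69 and 11.2 times in the other mice, in which the early bins held more of the 5 genes. PRM2 rose 151 times in WT replicate 1 and 3.86, 6.05 and 25.8 times in the others. Taking the mean pseudotime weighted by CPM over the bins, the order in WT replicate 1 was TNP1 (0.709), PRM3 (0.716), TNP2 (0.717), PRM1 (0.729) and PRM2 (0.770). Ctcf-cKO replicate 1 also had TNP1 first (0.556) and PRM2 last (0.665), whereas in WT replicate 2 PRM2 was first (0.603) and TNP1 last (0.648). In Ctcf-cKO replicate 3 the 5 values lay between 0.661 and 0.691. A single order of the 4 abundant genes was thus not seen across mice. With a score of stage markers as the axis in place of pseudotime, TNP1 first reached 50% in bin 5 in both WT mice and in bin 3 in both Ctcf-cKO mice. With free RNA subtracted in each bin, PRM1 in WT replicate 2 reached 50% in bin 4 instead of bin 2.

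**Figure D3:**
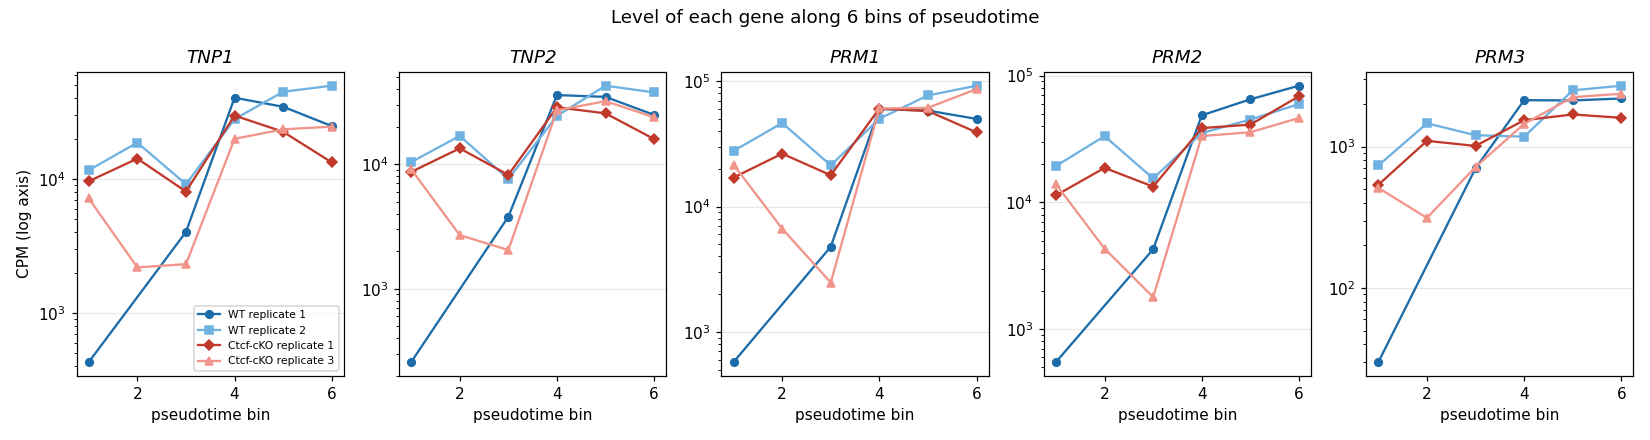
Level of each gene in CPM (log axis) in 6 bins of pseudotime, 1 line per mouse and only bins with at least 3 cells of the mouse drawn. The 5 genes rise between bins 3 and 4 in each mouse, apart from PRM3 in WT replicate 2, whose level in bin 4 was not above bin 3.

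The 4 abundant genes were found together in the elongating cluster of 118 cells, but not only there. After each cell was thinned to 900 counts, TNP1, TNP2, PRM1 and PRM2 each had at least 1 count in 100% of the elongating cluster of 118 cells in 4 of 4 mice. PRM3 had a count in 28 of 35 and 11 of 14 of those cells in WT and in 17 of 34 and 26 of 35 in Ctcf-cKO, and without thinning in 100%, 92.9%, 79.4% and 94.3%. In the late cluster all 4 abundant genes were found in 13 of 27 cells of WT replicate 1 (48.1%), where TNP1 was found in 55.6%, and in 91.7%, 91.5% and 95.2% in the other mice. The shares must be read against the somatic-like cells, of which 36.4% and 71.4% in WT and 77.0% and 86.7% in Ctcf-cKO held all 4 genes after thinning, at a median depth of 6463, 3656, 4542 and 2763 counts. Of the 15 round cells of WT replicate 1, 13.3% held all 4 genes and 33.3% held PRM1. Within the elongating cluster of 118 cells, the levels of PRM1 and PRM2 varied together from cell to cell, with Spearman correlations of 0.79 and 0.69 in WT and 0.59 and 0.73 in Ctcf-cKO over 14 to 35 cells that shared a library and its free RNA. TNP1 and PRM2 were less closely tied, at 0.29, 0.24, 0.02 and 0.26 in the same mice.

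The PRM1 to PRM2 ratio was above 1 in the elongating cluster and lower in the late one. Whether this was a step between stages was not tested. In the cluster of 118 cells, PRM1 had 1.56 and 1.77 counts per PRM2 count in WT and 1.57 and 1.92 in Ctcf-cKO. In the late cluster it had 0.382 and 1.21 in WT and 0.564 and 1.59 in Ctcf-cKO, lower than in the elongating cluster in 4 of 4 mice. In free RNA the ratio was 0.887 and 1.11 in WT and 1.23 and 1.20 in Ctcf-cKO.

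Some late cells held protamine messenger that was nearly all PRM2. Cells with at least 100 counts of PRM1 and PRM2 were called PRM2-led when PRM2 had at least 4 times the counts of PRM1. The late cluster held 16 such cells of 27 in WT replicate 1 (59.3%, exact 95% binomial interval 38.8% to 77.6%) and 1 of 12 in WT replicate 2 (8.33%, 0.211% to 38.5%). It held 5 of 47 in Ctcf-cKO replicate 1 (10.6%, 3.55% to 23.1%) and 1 of 63 in Ctcf-cKO replicate 3 (1.59%, 0.0402% to 8.53%). None was found in the other spermatid-like clusters. Just outside the limit, with PRM2 between 2 and 4 times PRM1, lay 4 late cells of WT replicate 1, 1 of Ctcf-cKO replicate 1 and 1 round cell of WT replicate 2. Of the 23 PRM2-led cells, 16 came from 1 library. Without the PRM2-led cells the late ratio was still below that of the elongating cluster in 4 of 4 mice, at 1.07, 1.64, 1.43 and 1.77. Each of these values lay between the elongating cluster and the free RNA of its mouse (0.887, 1.11, 1.23 and 1.20). The part of free RNA in them was not tested. In the Ctcf-cKO mice only 39 and 32 of the late cells had enough protamine counts to be called at all, against all 27 and 12 in WT. The shares and intervals above are over all late cells. In Ctcf-cKO they thus count cells that could not be called as not PRM2-led. The call was made in spermatid-like clusters. Outside them, 1 Leydig-like cell of WT replicate 1 also had a log2 PRM1 to PRM2 ratio of -5.18.

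In the PRM2-led cells PRM2 stood at 116491 CPM in WT replicate 1, 109172 in WT replicate 2, 116070 in Ctcf-cKO replicate 1 and 167464 in Ctcf-cKO replicate 3, or 7.19, 3.80, 4.62 and 6.72 times free RNA. PRM1 was below free RNA in the same cells, at 0.713, 0.391, 0.222 and 0.0320 times. TNP1 was at 0.0976, 0.0142, 0.105 and 0.0550 times free RNA, lower than PRM1 in 3 of 4 mice. The cells were chosen by PRM1 and PRM2, so those 2 values describe the choice, whereas TNP1 had no part in it. PRM3 stood at 2.05, 3.08 and 1.67 times free RNA in 3 mice and had no count in the single cell of Ctcf-cKO replicate 3. Against the other late cells, 14 of the 24 markers of elongating spermatids were higher and 7 lower in both WT replicate 1 and Ctcf-cKO replicate 1, the 2 mice with more than 1 such cell. The other 3, SMCP, CST13 and KLK1B24, shared no direction, and the examples were chosen after the values were seen. Among the higher ones, ODF2, OAZ3 and PGK2 had log2 differences of only 0.033, 0.035 and 0.085 in WT replicate 1. Median counts of PRM2-led and other late cells were 8825.5 and 10514 in WT replicate 1, but 13754 and 2041.5 in Ctcf-cKO replicate 1. The part of depth in these differences was not tested. H1FNT, a linker histone of spermatids, was lower in them, at 319 and 298 CPM against 2612 and 1965 CPM. HMGB4, a nuclear protein of the high mobility group, had log2 differences (10 CPM added) of -3.26 and -2.60, and TEX37 had -3.57 and -3.08. GAPDHS, the sperm glycolytic enzyme, was higher by 1.12 and 1.75, and GSG1 by 1.16 and 1.73. ODF1, of the outer dense fibres of the tail, was higher by 0.26 and 2.30.

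Barcodes under the limit for cells also held PRM2-led ones. Among those with at least 50 counts of PRM1 and PRM2, 11 of 171 in WT replicate 1, 14 of 342 in WT replicate 2, 2 of 16 in Ctcf-cKO replicate 1 and 1 of 14 in Ctcf-cKO replicate 3 had PRM2 at 4 times PRM1 or more. The limit is set by the plateau count of each library, which was 1450.5, 794.5, 433 and 303.5 in the same order, and its part in the unequal shares was not tested.

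**Figure D4:**
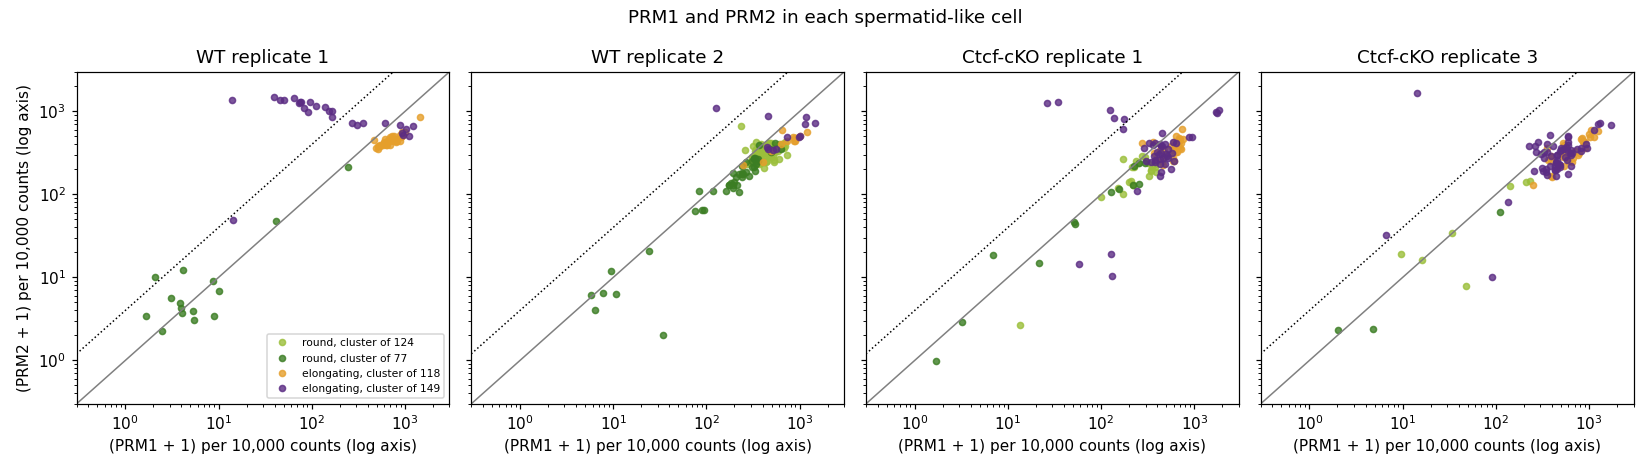
PRM1 and PRM2 in each spermatid-like cell (both axes log, 1 count added), 1 panel per mouse and 1 colour per cluster, with the solid line at equal counts and the dotted line at PRM2 4 times PRM1. Most cells lie just below the solid line, and the 23 PRM2-led late cells lie above the dotted line, where a round cell of WT replicate 1 and a late cell of Ctcf-cKO replicate 3 with too few protamine counts to be called also lie.

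The TNP to PRM ratio, TNP1 plus TNP2 over PRM1 plus PRM2, was lower in the late cluster than in the elongating one. The ratio was not tested for a step between stages. In the round cluster of 77 cells it was 0.865 and 0.483 in WT and 0.492 and 1.25 in Ctcf-cKO, with no shared order. It was 0.860 and 0.754 in WT and 0.568 and 0.461 in Ctcf-cKO in the elongating cluster of 118 cells, so that both WT mice were higher. In the late cluster it was 0.0918 and 0.309 in WT and 0.257 and 0.422 in Ctcf-cKO, lower than in the elongating cluster in 4 of 4 mice, and the genotypes overlapped. In the PRM2-led cells it was 0.0175, 0.0159, 0.0390 and 0.0170, far below the free RNA values of 0.517, 0.477, 0.673 and 0.583. TNP1 had 1.08 and 1.17 counts per TNP2 count in the elongating cluster of WT and 0.961 and 0.872 in that of Ctcf-cKO.

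Between genotypes, none of the ratios passed the exact permutation test over mice, which cannot give a two-sided p below 0.333 with 2 mice against 2. Over 10 ratio tests, the lowest adjusted p was 0.833. In the elongating cluster alone, the log2 TNP to PRM ratio differed by -0.65 (Ctcf-cKO minus WT, exact permutation p = 0.333), and the log2 PRM1 to PRM2 ratio differed by 0.06 (exact permutation p = 0.667). The level over free RNA in the same cluster differed by -1.65 on the log2 scale for TNP1 and by -1.22 for TNP2, both with an exact permutation p of 0.333 and an adjusted p of 0.833 over 25 tests.

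Tested across all genes with edgeR on counts summed per mouse, 0 of the 5 genes differed between genotypes in the spermatid-like cells together, a comparison in which 3.95% of 9023 genes passed. TNP1 had a log2 fold change (Ctcf-cKO against WT) of -0.53 ± 0.33 (SE, n = 2 mice a group, edgeR adjusted p = 0.510). TNP2 had -0.25 ± 0.34, PRM1 0.03 ± 0.33, PRM2 -0.29 ± 0.33 and PRM3 -0.20 ± 0.29. Without WT replicate 2, whose cells were mostly round, TNP1 (-0.87, edgeR adjusted p = 9.73e-06), TNP2 (-0.63, 0.00153) and PRM2 (-0.62, 0.000148) passed as lower. In this and in each other fit without 1 mouse, the mouse left alone in its genotype is assumed to vary like the 2 of the other genotype, so such a call has no replicate check in that genotype. In the mid stage, which joins the round cluster of 77 and the elongating cluster of 118 cells, 0 of 5 passed where 1.25% of 7181 genes did, and TNP1 passed without WT replicate 2 (-0.92, edgeR adjusted p = 0.00277). In the late stage 0 of 5 passed where 9.17% of 1854 genes did, with SEs of 0.52 to 1.22 for the 5 genes. With cells above the knee only, or with coarser or finer clusters, the cells were clustered anew and the late stage was another set of cells (104, 307 and 113), in which 17 or 18 of the 24 markers of elongating spermatids were raised. TNP1 passed as lower in those sets (-1.14, -1.05 and -0.83, edgeR adjusted p = 0.00925, 0.00449 and 0.000479), which are not the late cluster of 149 cells. In the round cells together 0 of 5 and 0% of 6334 genes passed by edgeR, with 223 genes at an unadjusted p under 0.05 and 5 genes called by DESeq2. With 1 WT mouse against 2, PRM1 there passed as lower without WT replicate 1 (-1.76, edgeR adjusted p = 0.00538) and as higher without WT replicate 2 (1.51, edgeR adjusted p = 0.0133), and PRM2 passed as lower without WT replicate 1 (-1.76, edgeR adjusted p = 0.00889).

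Within the elongating cluster of 118 cells alone, a comparison added after the values were seen, TNP1 and TNP2 were lower in Ctcf-cKO, and PRM1, PRM2 and PRM3 did not pass the test. TNP1 fell by 0.90 ± 0.12 on the log2 scale (edgeR adjusted p = 0.000128) and TNP2 by 0.60 ± 0.12 (edgeR adjusted p = 0.00445), lower in 2 of 2 Ctcf-cKO mice. PRM1 had -0.06 ± 0.13, PRM2 -0.13 ± 0.12 and PRM3 -0.30 ± 0.20, and with WT replicate 1 as the lone WT mouse PRM2 passed as well (-0.32, edgeR adjusted p = 0.0481). Of 2568 genes tested, 2.06% passed as lower and 9.54% in either direction. The difference in response between TNP1 and PRM1 was not itself tested beyond the TNP to PRM ratio above. TNP1 and TNP2 also passed with DESeq2, with free RNA subtracted and without doublets, but not without the filter on low genes, where TNP1 had -1.19 (edgeR adjusted p = 0.156) and TNP2 -0.90 (edgeR adjusted p = 0.473). The cells of the cluster had median counts of 22713 and 12244 in WT and 6293 and 2366 in Ctcf-cKO, and TNP1 in free RNA stood at 7115 and 17112 CPM in WT and 20520 and 17396 CPM in Ctcf-cKO. Red cell RNA was higher in the Ctcf-cKO cells of the cluster, with HBB-BS at 3292 and 631 CPM against 2.58 and 0 CPM in WT and HBA-A1 at 939 and 244 CPM against 0 in both WT mice. The median mitochondrial share of counts per cell was 0.903% and 1.24% in Ctcf-cKO and 0% in both WT mice. The parts of cell depth, red cell RNA and mitochondrial share in this difference were not tested.

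**Figure D5:**
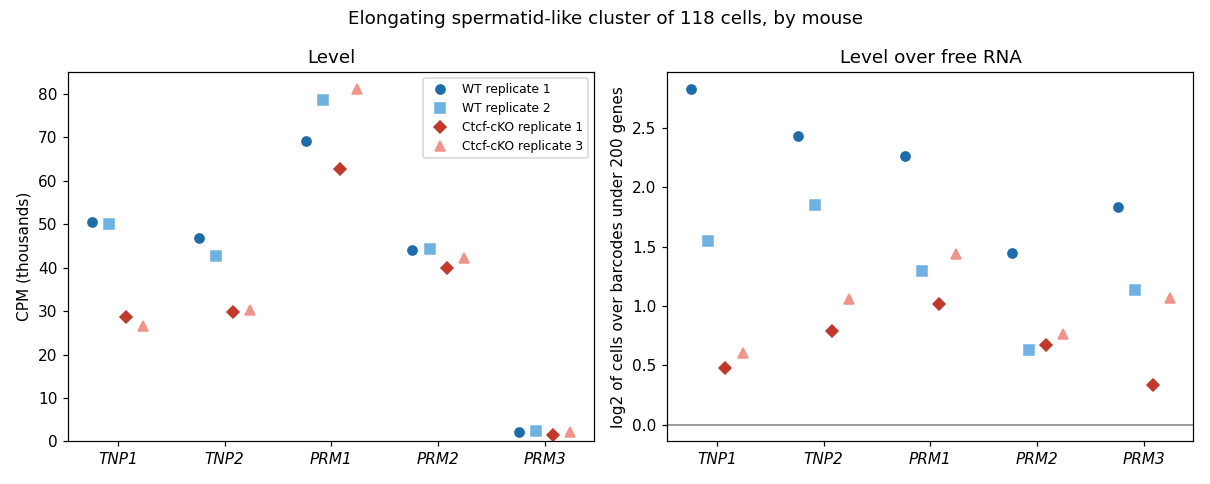
Level (left, CPM divided by 1000) and log2 level over free RNA (right, line at 0) of the 5 genes in the elongating cluster of 118 cells, 1 symbol per mouse. TNP1 and TNP2 of both WT mice lie above both Ctcf-cKO mice in each panel, while PRM1 overlaps between genotypes in each panel.

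In the free RNA itself, 0 of the 5 genes passed between genotypes, where 6.42% of 7879 genes did. The barcodes under 200 genes took in most of those near the plateau count in Ctcf-cKO and a minority or none in WT. The part of this in the comparison was not tested. TNP1 had 0.88 ± 0.60 (edgeR adjusted p = 0.481) and TNP2 0.91 ± 0.55 (edgeR adjusted p = 0.409). Without WT replicate 1, with a single WT mouse left, TNP1 was higher in Ctcf-cKO by 0.29 (edgeR adjusted p = 0.00274) and TNP2 by 0.57 (edgeR adjusted p = 3.74e-10). With WT replicate 1 as the lone WT mouse, each of the 5 genes passed as higher in Ctcf-cKO, by 1.13 for PRM2 to 1.92 for TNP1. Red cell RNA marked the Ctcf-cKO free RNA as well, HBB-BS standing at 857 and 1281 CPM there and at 47.6 and 3.39 CPM in WT, and HBA-A1 at 237 and 357 CPM there and at 0 in WT. In the plateau barcodes WT also held them, HBB-BS at 223 and 16.7 CPM against 847 and 1251 in Ctcf-cKO and HBA-A1 at 105 and 8.37 CPM against 214 and 344.

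The 3 lists of genes known to act with the 5 were counted in the same tests. Of 12 transcription regulators of spermatid genes, 11 were tested in all spermatid-like cells and none passed, with a median log2 fold change of -0.26 beside -0.05 over all genes. Of 15 genes for storage and delayed translation of messenger RNA, 14 were tested and none passed (median -0.12). Of 24 genes for histone removal and nuclear condensation, 19 were tested and none passed (median -0.06). None of the 3 lists had a member called in the mid or late stage, and in free RNA DDX4 alone passed (-1.35, edgeR adjusted p = 0.0200). The largest differences in the late stage were HILS1, a spermatid linker histone, at 2.02 (edgeR adjusted p = 0.0507), H3F3B, a replacement histone, at 1.55 (0.223), YBX3 at 1.98 (0.0651) and YBX1 at 0.96 (0.508), both proteins that bind stored messenger RNA, and SOX30 at 1.53 (0.326) and GTF2A1L at 1.48 (0.382), both of the transcription machinery of spermatids. In the elongating cluster alone, chosen after the values were seen and with 2.06% of all genes passing as lower and 9.54% in either direction, 1 of 7 regulators was lower, FHL5, a partner of CREM, by 1.04 (edgeR adjusted p = 0.0325). Of 10 storage genes, 1 was lower, YBX1, by 1.37 (edgeR adjusted p = 0.0114). Of 12 histone removal genes, H1FNT (fell by 0.60, edgeR adjusted p = 0.0359) and HMGB4 (fell by 0.99, 0.000900) were lower and H3F3B was higher by 1.80 (0.0325), at 46.5 and 59.5 CPM in WT and 215 and 150 CPM in Ctcf-cKO.

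The genes outside the 5 whose level followed their sum most closely over 29 points, each a class in a mouse, were DLGAP4 (Pearson r 0.955), 1700015G11RIK (0.951), 4930544D05RIK (0.931), PWWP2B (0.929) and OXCT2A (0.928). The points share libraries and free RNA. The members themselves had r of 0.907 (TNP1) to 0.962 (PRM1) with the sum that includes them.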

How the data were processed

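Testes of 2 WT and 2 Ctcf-cKO mice were analysed, 1 library each. The authors dissociated the tissue, barcoded cells in ddSEQ droplets, made 3′ libraries and aligned them to GRCm38. The deposited tables list raw counts for each barcode under gene symbols, with barcodes far too shallow for cells still in them. The counting tool and its use of molecular identifiers are not given in the sources used here, and the value 4 took 11.5% to 30.0% of nonzero entries against 2.81% to 3.54% for the value 5, so a count need not be 1 molecule. Among the gene symbols, 24 had been turned into dates.

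Here barcodes with 200 to 7000 genes, at most 10% mitochondrial counts and at least 3 times the plateau count (median over ranks 300 to 1000) were kept, 811 cells in all. Without the plateau limit the filter left 4227, 2075, 327 and 293 barcodes. Seurat 5.3.0 (2000 variable genes, 15 components, resolution 0.9) clustered the cells without the 5 genes after Harmony correction, and scanpy 1.11.5 gave pseudotime. Doublets (9, 6, 22 and 17 by Scrublet) were kept. Only 1 barcode was a cell in more than 1 library.

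Counts summed per mouse and class were tested with edgeR 4.0.16 (quasi-likelihood test, TMM, filterByExpr, Benjamini-Hochberg threshold 0.05); DESeq2 1.42.0 was an alternative. Single values had exact two-sided permutation tests. The edgeR script was tested on simulated data. The 5 genes, the marker and pathway lists and the rules were chosen with earlier results of these data known. Genes were named as the 5 members, pathway genes called in a spermatid comparison or else the 2 with the largest late difference per list, the 5 genes most like their sum, haemoglobin and Ctcf. H1FNT and other markers in PRM2-led cells, and the pathway genes called in the elongating cluster alone, were named after their values were seen. The labels give separate mice, and p-values measure the spread between these 4 libraries. Binomial intervals and free RNA estimates cover counting error only.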

Additional observations from a re-analysis of the deposited data

How the results depend on the processing

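No paired analysis was made, because the labels pair no WT mouse with a Ctcf-cKO mouse. With 2 mice a group, each fit without 1 mouse rests on the assumption that the lone mouse varies like the other genotype, and depth limited the Ctcf-cKO cells (4668 and 2338 counts each at the median). Of the alternatives, the added ones (round clusters together, elongating cluster alone, counts divided by 4, plateau barcodes and free RNA subtracted from bins) were chosen after seeing the data, and the cause of each change was not tested. The genes called by edgeR numbered 356 in all spermatid-like cells, 90 in the mid stage, 170 in the late stage, 506 in free RNA, 0 in round cells and 245 in the elongating cluster. Without batch correction, edgeR's count was 1 in all spermatid-like cells and 0 in the mid stage. With coarser clusters (resolution 0.5), edgeR's count was 557 in all spermatid-like cells and 902 in the late stage. With finer clusters (resolution 1.3), edgeR's count was 31 in all spermatid-like cells. With free RNA subtracted, edgeR's count was 86 in all spermatid-like cells and 0 in the late stage. With DESeq2, the tool's count was 167 in the mid stage, 235 in free RNA and 5 in round cells. Without the filter on low genes, edgeR's count was 249 in the mid stage and 38 in round cells. With cells above the knee only, edgeR's count was 0 in the mid stage, 351 in the late stage and 1 in round cells. With counts divided by 4, edgeR's count was 64 in the late stage. With totals that left out the 5 genes, edgeR's count was 326 in free RNA and 1 in round cells. With barcodes at the plateau, edgeR's count was 797 in free RNA. Without 1 mouse the counts ranged over 293 to 594 in all spermatid-like cells, 114 to 355 in the mid stage, 70 to 290 in the late stage, 132 to 1344 in free RNA, 0 to 112 in round cells and 139 to 285 in the elongating cluster. Cells were clustered anew without batch correction, with coarser or finer clusters and above the knee, so a stage there holds other cells: the late stage had 98, 307, 113 and 104 cells in place of 149, and a turned sign compares different cells. Some log2 fold changes turned sign. This happened without the filter on low genes for PRM1 in all spermatid-like cells (-0.14) and PRM2 in the mid stage (-0.036). Without batch correction it was PRM1 in all spermatid-like cells (-0.46), TNP1 in the mid stage (0.10), TNP2 in the mid stage (0.34), TNP1 in round cells (0.10), TNP2 in round cells (0.34), PRM1 in round cells (0.29) and PRM2 in round cells (0.21). With finer clusters (resolution 1.3) it was PRM1 in all spermatid-like cells (-0.13) and TNP2 in the late stage (-0.48). With free RNA subtracted it was PRM1 in all spermatid-like cells (-0.0018). With cells above the knee only it was PRM2 in all spermatid-like cells (0.11), TNP2 in the mid stage (0.0095), PRM2 in the mid stage (-0.061) and TNP2 in the late stage (-0.73). With counts divided by 4 it was PRM3 in all spermatid-like cells (0.11), PRM3 in the mid stage (0.16), TNP1 in the late stage (0.094) and PRM3 in the late stage (0.093). With coarser clusters (resolution 0.5) it was TNP2 in the late stage (-0.73). In all spermatid-like cells, leaving out 1 mouse gave log2 fold changes of -0.63 to 0.22 for TNP2, -0.32 to 0.27 for PRM1 and -0.62 to 0.093 for PRM2. For the mid stage it gave -0.92 to 0.14 for TNP1, -0.67 to 0.51 for TNP2, -0.029 to 0.62 for PRM1, -0.14 to 0.45 for PRM2 and -0.44 to 0.20 for PRM3. For the late stage it gave -1.03 to 1.13 for TNP1 and -0.19 to 0.999 for TNP2. For free RNA it gave -0.062 to 1.13 for PRM2. For round cells it gave -2.33 to 0.78 for TNP1, -2.20 to 0.84 for TNP2, -2.81 to 1.51 for PRM1, -2.91 to 1.19 for PRM2 and -1.08 to 0.34 for PRM3. For the elongating cluster it gave -0.34 to 0.10 for PRM1. Genotype differences of the log2 ratios turned as well. With cells above the knee only the turned values were -0.11 for the PRM1 to PRM2 ratio in the late stage, -0.66 for the TNP to PRM ratio in the late stage and -0.0089 for the TNP to PRM ratio in round cells. With coarser clusters (resolution 0.5) the turned values were -0.42 for the TNP to PRM ratio in the late stage. With finer clusters (resolution 1.3) the turned values were -0.53 for the TNP to PRM ratio in the late stage. Without batch correction the turned values were -0.050 for the TNP to PRM ratio in round cells. In all spermatid-like cells, leaving out 1 mouse gave log2 ratio differences of -0.077 to 0.58 for PRM1 to PRM2 ratio. For the mid stage it gave -0.010 to 0.32 for PRM1 to PRM2 ratio. For the late stage it gave -0.35 to 1.31 for PRM1 to PRM2 ratio. For round cells it gave -0.42 to 0.53 for TNP to PRM ratio. For the elongating cluster it gave -0.082 to 0.21 for PRM1 to PRM2 ratio. For the level over free RNA, TNP2 in the late stage turned without doublets (0.060). In all spermatid-like cells, leaving out 1 mouse gave log2 differences over free RNA of -0.98 to 0.20 for PRM1 and -1.02 to 0.32 for PRM2. For the mid stage it gave -1.42 to 0.030 for TNP2, -0.95 to 0.62 for PRM1 and -0.65 to 0.60 for PRM2. For the late stage it gave -1.12 to 0.12 for TNP1 and -0.58 to 0.52 for TNP2. For round cells it gave -2.19 to 0.16 for PRM1 and -2.14 to 0.32 for PRM2. For the elongating cluster it gave -0.73 to 0.086 for PRM2. With a marker score as the axis, the first bin at 50% of the highest was 5 for TNP1, TNP2, PRM1, PRM2 and PRM3 of WT replicate 1, TNP1 and TNP2 of WT replicate 2 and PRM2 of Ctcf-cKO replicate 1. It was 3 for TNP1, TNP2 and PRM1 of Ctcf-cKO replicate 1 and TNP1 and PRM2 of Ctcf-cKO replicate 3. It was 2 for TNP2 of Ctcf-cKO replicate 3. It was 4 for PRM1, PRM2 and PRM3 of WT replicate 2. With free RNA subtracted in each bin, the first bin at 50% of the highest was 4 for PRM1 of WT replicate 2. With 10 bins, the first bin at 50% of the highest was 7 for PRM2 of WT replicate 2 and PRM3 of Ctcf-cKO replicate 3. It was 10 for PRM2 of Ctcf-cKO replicate 1. It was 4 for PRM3 of Ctcf-cKO replicate 1. TNP1 and TNP2 in the elongating cluster stayed lower and past the threshold with DESeq2, totals without the 5 genes, free RNA subtracted, doublets left out, counts divided by 4 and 1 mouse left out, but not without the filter on low genes, where TNP1 had -1.19 (edgeR adjusted p = 0.156) and TNP2 -0.90 (edgeR adjusted p = 0.473). The other clusterings, no batch correction and the knee were not run on that cluster.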
